A study of Mus musculus with 26 samples.

Results

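The 6 genes Fos, Fosb, Fosl2, Jun, Junb and Jund encode subunits of AP-1, and their open chromatin was followed through 8 ATAC-seq peak lists of mouse brain nuclei. Each list belongs to 1 group, made of 1 cell type in 1 cocaine state. ATAC-seq cuts accessible DNA with a transposase, and a peak is a stretch of the genome with more cuts than its surroundings. The 6 genes were taken by their names in the rows of the lists, which gave 69 peaks of the 399461 in all 8 lists, and 6 of the 21540 genes that any row names. Peaks within 50 kb of the transcription start site (TSS) of Fos and of Fosb were added as distal elements. A promoter peak was a row naming the gene at a distance of at most 1000 bp from a TSS.

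The nuclei came from D1 and D2 medium spiny neurons (MSN), the projection neurons of the striatum that express the dopamine receptor Drd1 or Drd2. The labels give the tissue only as brain, and strain, age, sex and the way the nuclei were separated are not given in the sources used here. The states were acute cocaine (SC), chronic cocaine with prolonged withdrawal (CS), cocaine relapse (CC) and the baseline (SS). D1 SC, D1 CS and D1 CC hold 4 libraries each and D1 SS holds 2. D2 SC holds 1 library, D2 CS 8, D2 CC 1 and D2 SS 2. There is 1 list per group and no value per library, so no replicate error and no p-value can be given, and every comparison is between lists. In nuclei of many cells, fewer open cells and less opening per cell cannot be told apart.

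The lists differ in length and depth as well as in state. They hold between 27917 peaks (D2 CS) and 77103 peaks (D1 CC), covering 13.7 Mb to 42.3 Mb. The lists carry no read totals. The spacing of the fold values, which falls as more reads lie behind a list, runs from 0.466 in D1 SC to 0.140 in D2 SS, so D1 SC is the coarsest. D2 CS and the SC, CS and CC lists of D1 have 70 to 137 peaks on patch scaffolds of the assembly, and D1 SS with the SC, CC and SS lists of D2 have 4 to 7. These are called the patch-rich and the patch-poor lists here. The patch-rich lists come from 4 to 8 libraries and the patch-poor ones from 1 or 2, so across the 2 sets neither number of libraries nor set can be told apart from the group. All 5 markers shared by MSN had a peak in every list. Of 6 D2 MSN markers (Drd2, Adora2a, Penk, Gpr6, Gpr52, Sp9), the D1 lists had a peak for 4 (SC), 4 (CS), 5 (CC) and 1 (SS), and each D2 list for 5. Of 6 D1 MSN markers (Drd1, Tac1, Pdyn, Chrm4, Isl1, Ebf1), the D1 lists had a peak for 5, 5, 6 and 5 in the same order, and the D2 lists for 5, 4, 5 and 4, Drd1 among them in every D2 list. Of 21 markers of glia and vessels, 4, 11, 15 and 7 had a peak in D1 and 7, 5, 10 and 10 in D2. In covered length the D2 MSN markers took 156, 147, 165 and 21.2 bp per Mb of list in D1, against 293, 424, 332 and 299 bp per Mb in D2.

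AP-1 is a dimer of basic leucine zipper proteins: a Fos protein pairs with a Jun protein, while Jun proteins can also pair with each other. Fos, Fosb and Junb are immediate early genes, which neurons transcribe within minutes of a stimulus through CREB, serum response factor and its partners, with no new protein needed. A truncated Fosb product, ΔFosB, is unusually stable and is known to build up in striatal neurons under repeated cocaine. Jund is expressed more steadily in many cells.

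Promoter letters are shown for the 4 members whose upstream window is covered by peaks, in whole or in part, in at least 6 lists. Each is the 250 bases before the RefSeq TSS (GRCm38.p6), 5′ to 3′ on the gene's strand, and capitals mark the motifs found: TGACG, the core of the cyclic AMP response element (CRE), TATAAA, the TATA box, and TGACATCA, a variant of the CRE and AP-1 sites.
Fos (chr12:85473640-85473889, plus strand): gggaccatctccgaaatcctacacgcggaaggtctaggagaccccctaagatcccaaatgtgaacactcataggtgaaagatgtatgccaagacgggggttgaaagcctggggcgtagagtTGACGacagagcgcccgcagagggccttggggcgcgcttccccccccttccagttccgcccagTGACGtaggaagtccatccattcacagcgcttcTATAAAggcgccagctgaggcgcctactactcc
Fosb (chr7:19310046-19310295, minus strand): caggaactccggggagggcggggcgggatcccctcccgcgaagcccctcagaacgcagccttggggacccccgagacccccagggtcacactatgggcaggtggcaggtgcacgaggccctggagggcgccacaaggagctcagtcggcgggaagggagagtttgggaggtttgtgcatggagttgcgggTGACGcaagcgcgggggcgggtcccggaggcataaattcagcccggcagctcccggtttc
Jun (chr4:95052223-95052472, minus strand): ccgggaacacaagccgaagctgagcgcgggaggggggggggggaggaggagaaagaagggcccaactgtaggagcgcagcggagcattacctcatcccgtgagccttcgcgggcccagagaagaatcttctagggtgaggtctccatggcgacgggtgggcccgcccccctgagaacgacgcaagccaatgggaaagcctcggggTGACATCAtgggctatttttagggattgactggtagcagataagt
Junb (chr8:84978749-84978998, minus strand): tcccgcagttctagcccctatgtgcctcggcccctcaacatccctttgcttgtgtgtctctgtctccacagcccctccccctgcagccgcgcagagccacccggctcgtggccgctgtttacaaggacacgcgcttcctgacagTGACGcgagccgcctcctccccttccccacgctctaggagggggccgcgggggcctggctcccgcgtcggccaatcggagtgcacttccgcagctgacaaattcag
The Fos window holds TGACG at -129 to -125 and at -66 to -62 and a TATAAA box at -33 to -28, counted from the TSS. Fosb has TGACG at -60 to -56, Junb at -106 to -102, and Jun has TGACATCA at -45 to -38. Both strands were searched. Among 27025 windows of the same length, 17.9% hold TGACG, 3.02% hold TGACATCA and 3504 windows hold TATAAA. The AP-1 site TGANTCA is in 6.87% of all windows, the full CRE TGACGTCA, which contains TGACG, in 1.62%, and the CArG box of serum response factor in 1.40%, and none of the 3 is in these 4 windows. Peaks covered all 250 bases of the Jun window in all 8 lists. They covered 182 to 250 bases of the Fos window in 7 lists and none in D1 SS, and 142 to 217 bases of the Fosb window in 6 lists and none in D1 SS and D2 CS. For Junb the range was 47 to 250 bases in 7 lists, with none in D1 SC.

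**Figure D1:**
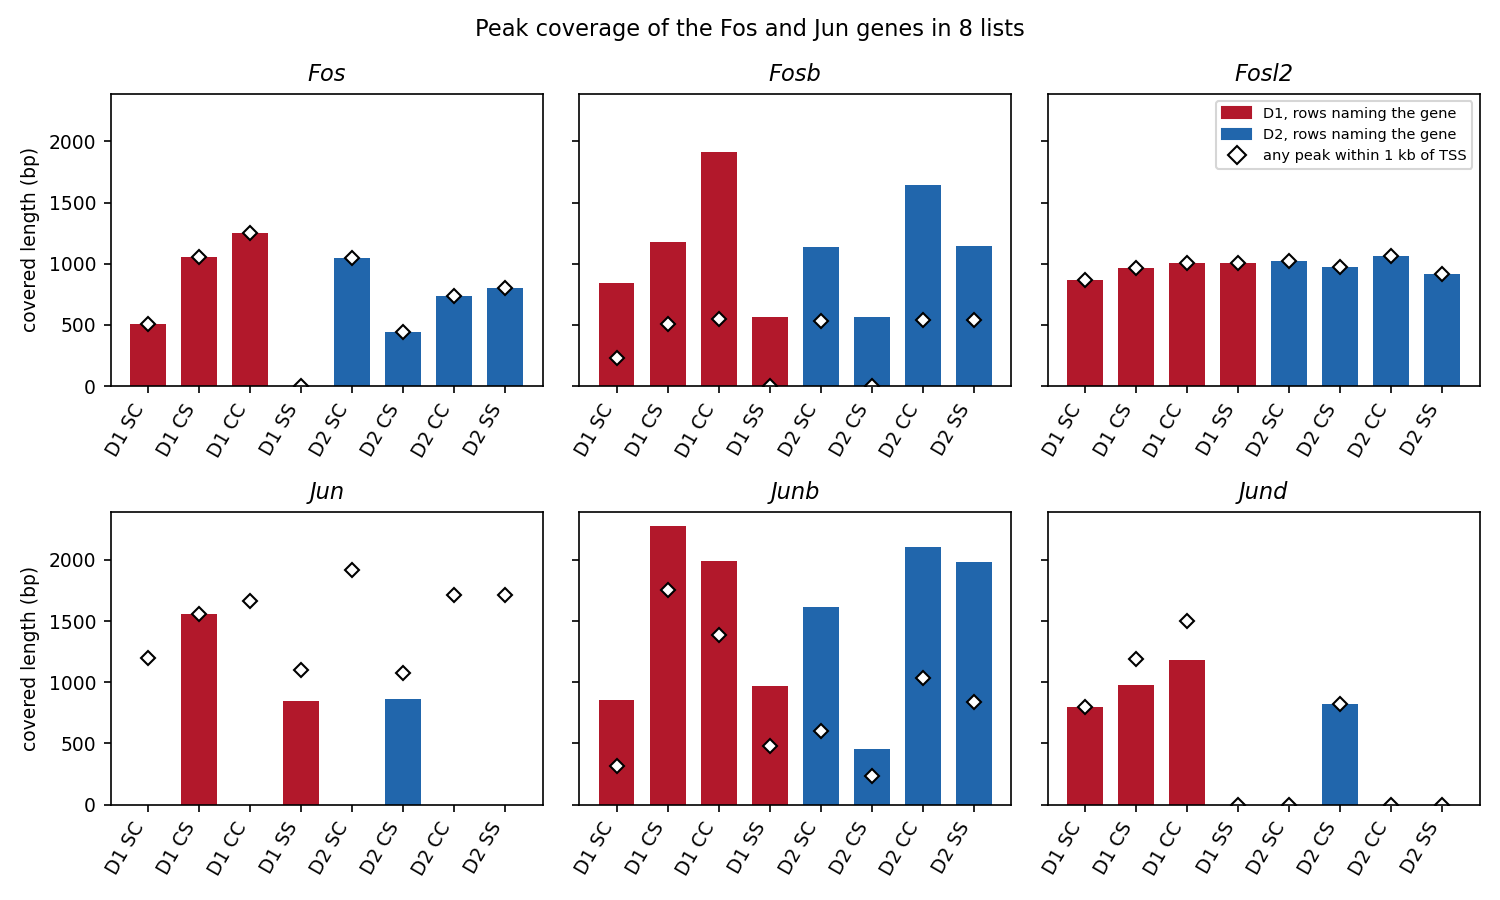
Covered length in bp (vertical axis) of each gene in each list (horizontal axis), D1 lists in red and D2 lists in blue; bars are peaks whose row names the gene and white diamonds are all peaks within 1 kb of the gene's most upstream TSS. Fosl2 stands between 866 and 1066 bp in every list, Fos is at 0 only in D1 SS, Jund has a value in 4 lists, and the Jun diamonds are above 1000 bp in all 8 lists although 5 bars are at 0.

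Fos, the founding member of the family, lies on the plus strand of chromosome 12 with its TSS at 85473890 (mm10, the most upstream TSS the rows give, as for the other members). A Fos promoter peak was in 7 of the 8 lists and absent from D1 SS. Fos peaks covered 504 bp in D1 SC, 1055 bp in D1 CS and 1253 bp in D1 CC, while D1 SS had no peak. In D2 they covered 1045 bp in SC, 444 bp in CS and 734 bp in CC, against 803 bp in SS. The 3 cocaine lists of D1 thus held the peak that the D1 baseline list lacked, whereas in D2 it was present in every state. That contrast depends on list length. With every list cut to its 27917 most significant peaks, a Fos promoter peak was in 5 lists, and D2 SC and D2 SS also lacked it. D1 SC and D1 SS are of nearly equal length (28321 and 28579 peaks) but differ in libraries (4 and 2) and in fold spacing (0.466 and 0.195), and the part of these in the missing peak was not tested. D1 SS is patch-poor and the other D1 lists are patch-rich, so set and state cannot be told apart there. Within the patch-poor set, D1 SS had no peak and D2 SS had 803 bp. These lists differ in length (28579 and 61818 peaks) and in fold spacing (0.195 and 0.140). Of 16805 genes with a promoter peak in any list, 1076 (6.40%) shared the Fos pattern of every list except D1 SS, against 207 (1.23%) for every list except D1 SC and 232 (1.38%) for every list except D2 CS.

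The Fos promoter opening consisted of 2 stretches. One, centred at -0.0955 kb from the TSS (85473410-85474179), was in 7 lists, and the other, centred at +0.745 kb (85474293-85474976), was in 6 lists, without D1 SC and D1 SS. The strongest promoter peak had a fold of 5.52, 4.37 and 5.45 in D1 SC, CS and CC, and of 4.32, 4.84, 5.00 and 3.34 in D2 SC, CS, CC and SS. Fold is the authors' own enrichment of a peak over local background, and it ranks peaks within a list only. Its percentile among all peaks of the list was 38.5, 41.1 and 66.2 in D1 SC, CS and CC, and 38.0, 38.5, 61.6 and 18.0 in D2 SC, CS, CC and SS. The strongest peak was in the stretch at -0.0955 kb in every list with a peak but D1 CS, where it was in the stretch at +0.745 kb. At -0.0955 kb, D1 CS had a fold of 3.75, at the 20.7th percentile. In both cell types the CC list placed the Fos promoter peak highest, above the middle of its list, though lists of different length make such ranks no measure of change. Among promoter peaks alone the percentiles were lower, between 13.2 and 45.7.

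Around Fos, 9 merged regions lay within 50 kb of the TSS, 7 of them distal. The 3 found in all 8 lists were centred at -37.6 kb (85435910-85436723), -18.4 kb (85454910-85456011) and +12.2 kb (85485608-85486492). The rows place the region at -37.6 kb at the promoter of AC159244.4 and the other two in intergenic sequence. The -37.6 kb region had a fold of 10.4, 8.53, 9.57 and 7.02 in D1 SC, CS, CC and SS, and of 8.43, 7.46, 8.42 and 8.06 in D2 SC, CS, CC and SS. Those values put it at the 83.8th to 97.1st percentile of its list, the lowest in D2 CS. The -18.4 kb region had a fold of 9.86, 8.33, 9.08 and 7.0 in D1 SC, CS, CC and SS, and of 8.45, 8.41, 8.83 and 8.10 in D2 SC, CS, CC and SS, at the 90.7th to 96.6th percentile. Apart from the -37.6 kb region in D2 CS, both stood at the 90.7th percentile or higher in every list, D1 SS included. The +12.2 kb region had a fold of 7.29, 6.28, 6.33 and 4.21 in D1 SC, CS, CC and SS, and of 6.49, 6.79, 6.31 and 6.08 in D2 SC, CS, CC and SS. In D1 SS it stood at the 38.3rd percentile, against 72.3 to 80.0 in the other lists.

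The strongest distal region exceeded the strongest promoter peak in every list that had both, and so did weaker distal regions. In D1 SC, CS and CC, 4 of 4, 3 of 4 and 4 of 6 distal regions had a higher fold than that promoter peak. In D2 SC, CS, CC and SS it was 3 of 3, 3 of 3, 3 of 5 and 4 of 4. The strongest distal peak had a fold of 10.4 in D1 SC, where the strongest promoter peak had 5.52. In D1 CS and D1 CC the strongest distal peak had 8.53 and 9.57, where the promoter had 4.37 and 5.45. In D2 SC, CS, CC and SS it had 8.45, 8.41, 8.83 and 8.10, where the promoter had 4.32, 4.84, 5.00 and 3.34. In D1 the strongest distal peak was that at -37.6 kb, which the rows place at the promoter of AC159244.4. In D2 it was the intergenic one at -18.4 kb. The -18.4 kb region, at 9.86, 8.33 and 9.08, also exceeded the Fos promoter peak in D1 SC, CS and CC. Of the other 4 distal regions, that at +45.9 kb (85519477-85520026) was in D1 SC, D1 CC, D2 CC and D2 SS, with folds of 6.98, 6.38, 3.94 and 3.94. A region at +14 kb was in D1 CC and D2 CC, the 2 relapse lists and also the 2 longest lists. Regions at -5.65 kb (D1 CS) and +18.5 kb (D1 CC) were in 1 list each. Distal peaks covered 2280, 2639, 3743 and 1985 bp in D1 SC, CS, CC and SS, and 2326, 2236, 3522 and 2995 bp in D2 SC, CS, CC and SS. The letters of the distal regions are not shown here.

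**Figure D2:**
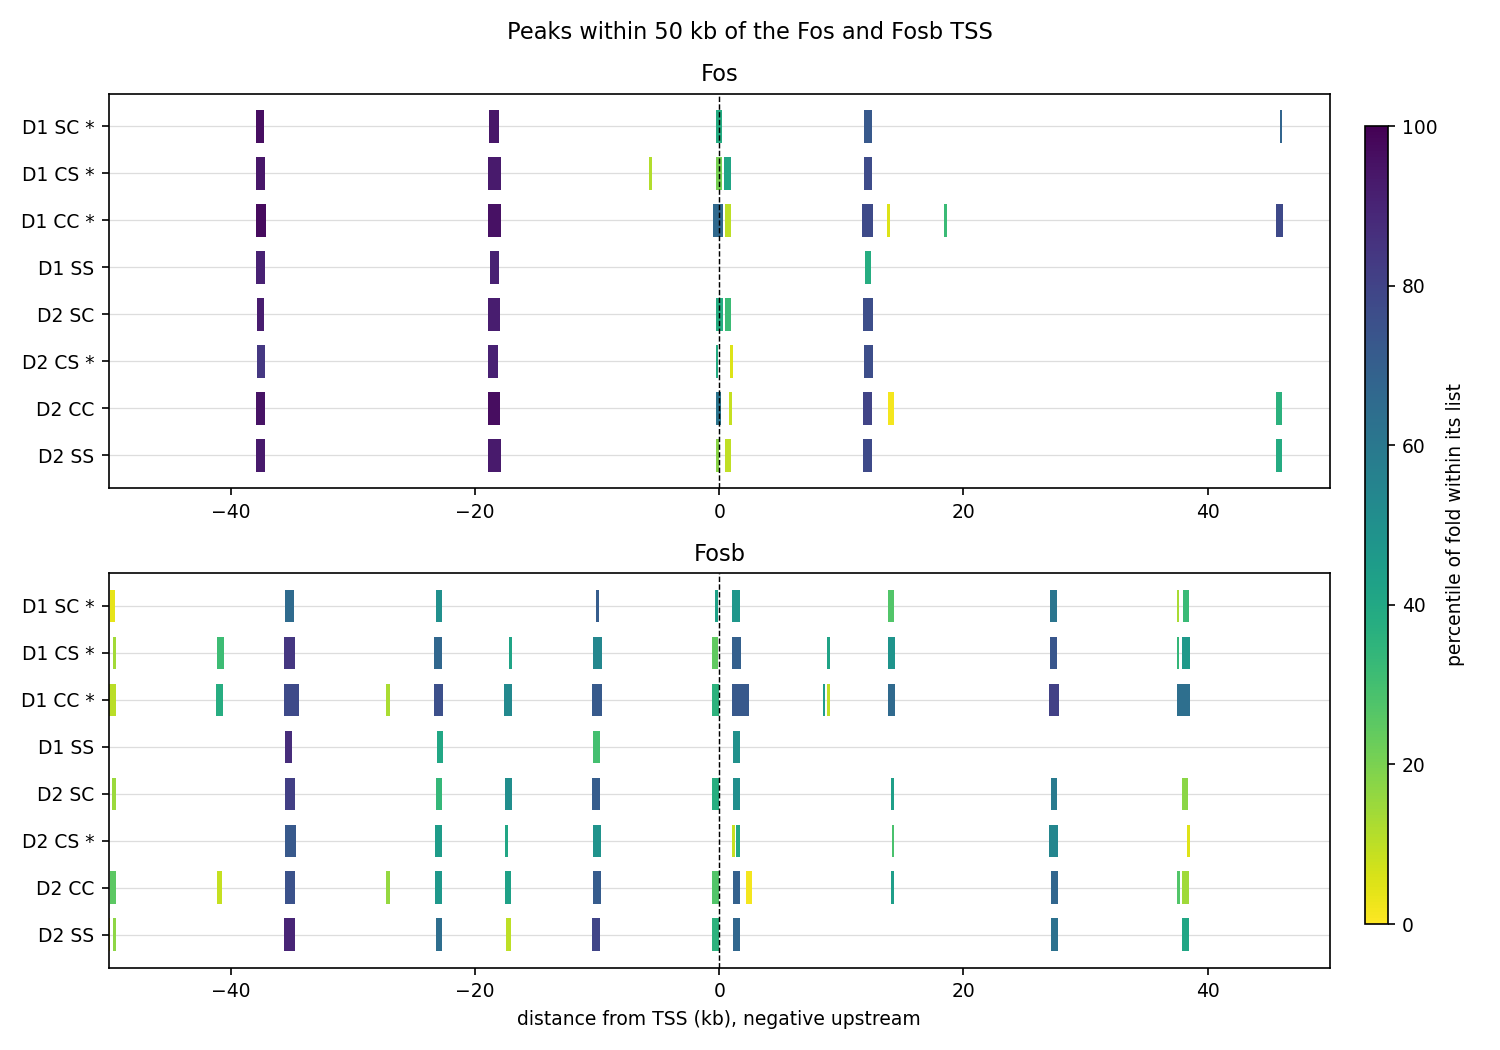
Peaks within 50 kb of the Fos TSS (upper panel) and the Fosb TSS (lower panel) in each list, drawn as bars at their distance from the TSS in kb (horizontal axis, negative upstream) and coloured by the percentile of their fold within the list; an asterisk marks the patch-rich lists. At Fos the regions at -37.6, -18.4 and +12.2 kb are in all 8 lists, and D1 SS alone has no peak within 1 kb of the Fos TSS.

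Fosb, whose transcript also gives ΔFosB by alternative splicing, lies on the minus strand of chromosome 7 with its TSS at 19310051. Rows naming Fosb covered 840 bp in D1 SC, 1177 bp in D1 CS and 1910 bp in D1 CC, against 566 bp in D1 SS. In D2 they covered 1138 bp in SC, 562 bp in CS and 1643 bp in CC, against 1149 bp in SS. In both cell types the CC list held the most Fosb bp. As shares of the covered length of the list, these were 60.6, 47.2, 45.2 and 39.8 bp per Mb in D1 SC, CS, CC and SS, and 35.6, 41.0, 41.9 and 33.2 in D2 SC, CS, CC and SS. On that scale no pair of states differed by 2-fold.

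The Fosb peaks were of 2 kinds. A region centred at -0.314 kb (19310079-19310651) was in 6 lists and absent from D1 SS and D2 CS. Its fold was 5.66, 3.82 and 4.03 in D1 SC, CS and CC, and 4.27, 3.64 and 3.87 in D2 SC, CC and SS. In none of the lists did it reach over the TSS itself. The second region, centred 1.85 kb into the gene (19307382-19309011), was in all 8 lists and covered 562 to 1364 bp. Its fold was 5.88, 5.71, 5.91 and 4.52 in D1 SC, CS, CC and SS, and 4.82, 4.95, 5.47 and 5.29 in D2 SC, CS, CC and SS. The gene body region was the stronger in each of the 6 lists that had both. The rows count it as a promoter peak of Fosb in 7 of 8 lists, at a distance of 720 to 963 bp from an annotated TSS, which is why the rows give a Fosb promoter peak in 8 lists and position gives it in 6.

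Within 50 kb of Fosb, 14 merged regions were found, 13 of them more than 1000 bp from the TSS. Besides the gene body region, 3 were in all 8 lists. One at -35.0 kb (19344453-19345698), which the rows assign to the promoter of the DNA repair gene Ercc1, had folds of 5.88 to 7.47. The others were at -23.0 kb (19332691-19333403, Gm44698, fold 4.17 to 6.16) and at -10.0 kb (19319659-19320462, in D830036C21Rik, fold 3.97 to 7.18). Regions at -49.8 kb, -17.3 kb and +14.1 kb were in 6 lists each. Those at +27.4 kb, the promoter of Rtn2, and at +38.0 kb, assigned to Vasp, were in 7 lists, without D1 SS. A further 3 regions were in 2 or 3 lists and 1 was in 1 list. D1 SC, CS, CC and SS held 8, 11, 13 and 4 of the 13, and D2 SC, CS, CC and SS held 9, 8, 11 and 8. The 4 in D1 SS were those found in every list, so around Fosb as around Fos, D1 SS held only the shared regions. Their order by number follows the length of the lists in D1, apart from D1 SC and D1 SS, which are of nearly equal length and held 8 and 4.

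Fosl2, which encodes Fra-2, lies on the plus strand of chromosome 5 with its TSS at 32135801 and varied least among the members. A single peak over the TSS covered 866 bp in D1 SC, 962 bp in D1 CS and 1010 bp in D1 CC, against 1010 bp in D1 SS. In D2 it covered 1023 bp in SC, 977 bp in CS and 1066 bp in CC, against 916 bp in SS. The widest was 1.23 times the narrowest. Fold was 7.62, 6.83, 6.37 and 5.89 in D1 SC, CS, CC and SS, and 6.89, 5.98, 6.38 and 6.72 in D2 SC, CS, CC and SS. The peak stood at the 65.1st to 83.7th percentile of its list. With so constant a width, its share of the list mirrors the length of the list: 62.5, 38.6, 23.9 and 71.1 bp per Mb in D1 SC, CS, CC and SS, and 32.0, 71.2, 27.2 and 26.4 in D2 SC, CS, CC and SS. Every 2-fold difference reported for Fosl2 below is of this kind, with nearly equal bp in both lists. A weak region at -2.62 kb was in D1 CC, D2 CC and D2 SS with folds of 2.60 to 3.03.

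Jun, a partner of the Fos proteins, lies on the minus strand of chromosome 4 with its TSS at 95052222. By its name in the rows it had a peak in only 3 lists, with 1561 bp in D1 CS, 844 bp in D1 SS and 865 bp in D2 CS. By position, a peak covered the Jun TSS in all 8 lists. In D1 SC, D1 CC, D2 SC, D2 CC and D2 SS the row of that peak names Junos, an antisense gene at the Jun start. Peaks within 1 kb of the TSS covered 1199, 1561, 1665 and 1101 bp in D1 SC, CS, CC and SS, and 1920, 1072, 1711 and 1712 bp in D2 SC, CS, CC and SS. The folds of the peak over the TSS were 6.36, 5.68, 5.41 and 5.84 in D1 SC, CS, CC and SS, and 5.38, 6.42, 5.41 and 5.18 in D2 SC, CS, CC and SS, at the 57.5th to 77.7th percentile. The apparent absences of Jun below therefore reflect the name given to the row. In RefSeq gene windows, where row names play no part, its log2 ratio was -0.30 in D1 SC and -1.23 in D1 CC against D1 SS. It was 1.04 in D2 CS and 1.01 in D1 SS against D2 SS, and -0.81 in D1 CC against D1 CS. Where these passed 2-fold, the list with the larger share of Jun held fewer bp of it, as list length also sets the share. ATAC-seq cuts carry no strand, so openings for Jun and for Junos cannot be told apart. A second, weaker region 1.51 kb downstream of the Jun TSS was in 7 lists, without D1 SC, at folds of 2.66 to 2.95 and under the name Junos.

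Junb, an immediate early gene whose product is a weaker activator than Jun, lies on the minus strand of chromosome 8 with its TSS at 84978718. A peak over the TSS was in all 8 lists. Junb peaks covered 859 bp in D1 SC, 2278 bp in D1 CS and 1994 bp in D1 CC, against 967 bp in D1 SS. In D2 they covered 1616 bp in SC, 455 bp in CS and 2106 bp in CC, against 1980 bp in SS. D2 CS, which has the fewest peaks of the 8 lists, held the least. The TSS peak was weak: its fold was 4.00, 3.21, 3.07 and 2.97 in D1 SC, CS, CC and SS, and 4.16, 3.25, 3.09 and 3.40 in D2 SC, CS, CC and SS, at the 1.66th to 33.5th percentile. A second region at +2.18 kb (84976143-84976928) was also in all 8 lists, at folds of 2.88 to 4.07. A region at -1.28 kb was in 7 lists, without D2 CS, and one at +0.902 kb was in D1 CS and D2 CC. Junb was the member with the most openings within 5 kb of its TSS. By fold its TSS peak ranked lowest of the members in every list but D2 SS, where Fos stood at 18.0 and Junb at 21.2. Ranked by q, the strongest promoter peak of Junb was lowest of the members with such a peak only in D1 SS and D2 CC. Outside D2 SC and D2 CC that peak was the +2.18 kb region and not the TSS peak. For Fosb the strongest promoter peak was the gene body region in every list but D1 CC. The ranks by fold and by q are therefore mostly of different peaks.

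**Figure D3:**
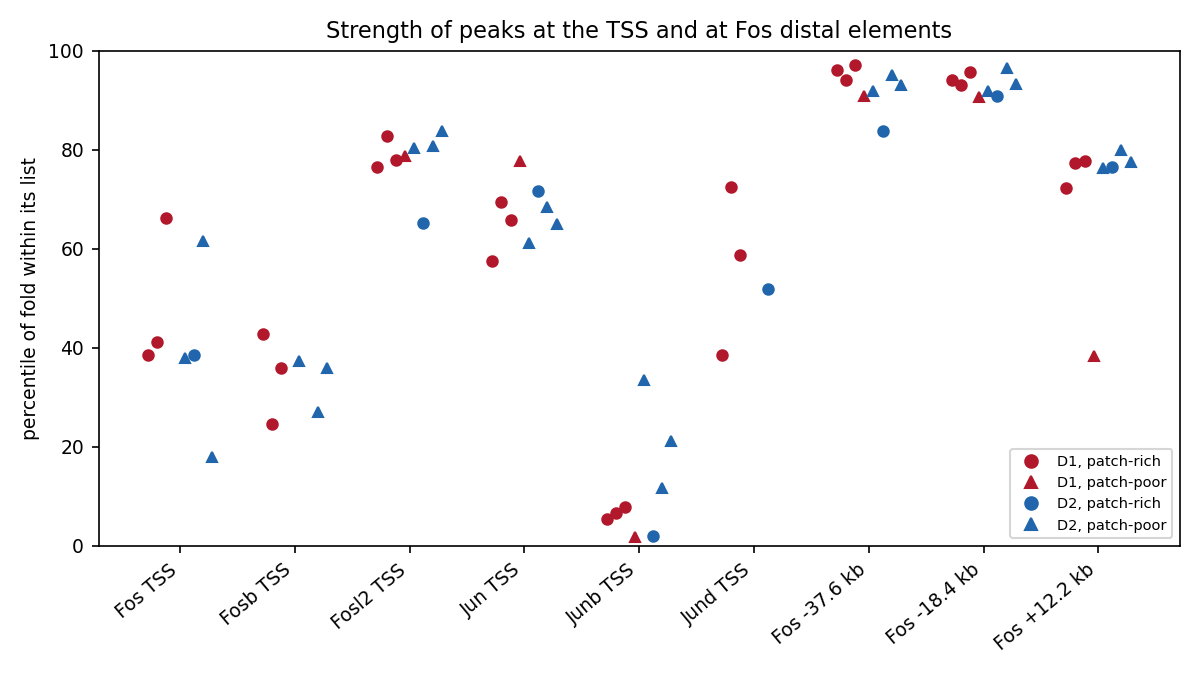
Percentile of the authors' fold within its list (vertical axis) for the strongest peak at or near the TSS of each member and for the 3 distal Fos regions found in all 8 lists (horizontal axis); each symbol is 1 list, D1 red and D2 blue, circles patch-rich and triangles patch-poor. The Fos regions at -37.6 and -18.4 kb lie between 83.8 and 97.1, above the strongest peak near the Fos TSS in every list with one (18.0 to 66.2). That Fos peak is at +0.745 kb in D1 CS and at -0.0955 kb elsewhere. The Junb TSS peak lies at 33.5 or below.

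Jund, a broadly expressed Jun gene, lies on the plus strand of chromosome 8 with its TSS at 70698949. A peak over the TSS covered 796 bp in D1 SC, 979 bp in D1 CS and 1181 bp in D1 CC, and none was in D1 SS. In D2 it covered 819 bp in CS, and none was in SC, CC or SS. Where present its fold was 5.56, 5.89 and 4.97 in D1 SC, CS and CC, at the 38.6th, 72.4th and 58.8th percentile, and 5.32 in D2 CS, at the 51.8th. The 4 lists that hold the peak are exactly the patch-rich ones, so patch set and state cannot be told apart for Jund. Of 16805 genes with a promoter peak in any list, 166 (0.988%) were in exactly the 4 patch-rich lists and 11 (0.0655%) in exactly the 4 patch-poor ones.

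The absence at Jund extended far beyond the gene. From 70673942 to 70856769 on chromosome 8, a stretch of 183 kb reaching from 25.0 kb upstream to 158 kb downstream of the Jund TSS, the patch-poor lists held 0 peaks. There D1 SC, CS and CC held 12, 15 and 17 peaks, covering 7039, 9191 and 11824 bp, and D2 CS held 11, covering 6136 bp. They merged into 19 regions, of which 9 were in all 4 patch-rich lists and 6 in 1 list. The rows name Rab3a, a synaptic vesicle GTPase, Mpv17l2, Pik3r2, Mast3 and Arrdc2 among the genes of these regions. Peaks resumed on both sides in all 8 lists. Jund is thus 1 gene of a stretch that is empty as a whole in 4 lists, and its values are no more particular to Jund than to its neighbours.

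**Figure D4:**
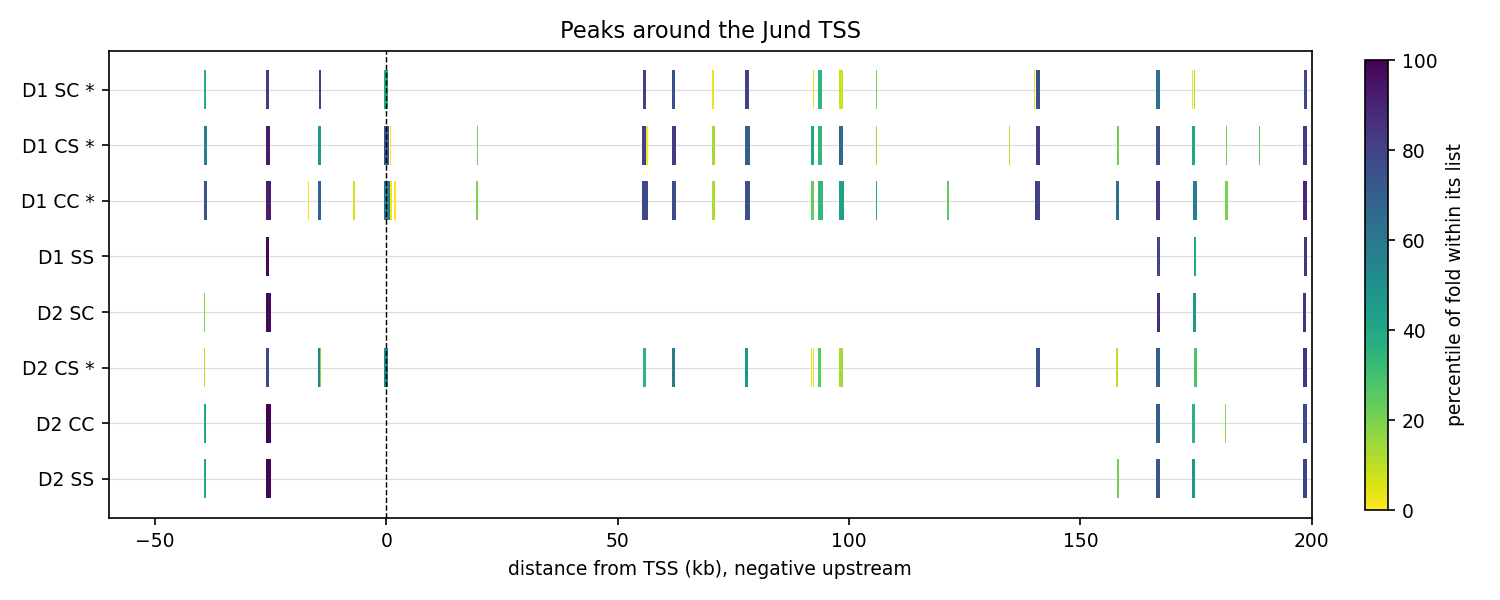
Peaks around the Jund TSS in each list, drawn as bars at their distance from the TSS in kb (horizontal axis, negative upstream) and coloured by the percentile of their fold within the list; an asterisk marks the patch-rich lists. From 25.0 kb upstream to 158 kb downstream the 4 lists without an asterisk hold no peak, while those with one hold 11 to 17.

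For comparisons between lists, the bp under rows naming a gene plus 200 bp were divided by the covered length of the list, and a gene was called past a 2-fold ratio. The same rule over every gene with a peak in either list gives the background. A count of 1 or 2 among 6 genes is not read as a result about the family, since the background shares run from 4.32% to 35.0%. No ratio is given where one list has no peak.

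Against the D1 baseline, D1 SC had Fos and Jund higher and Jun lower. The background was 19.1% of 14702 genes higher and 9.13% lower. A promoter peak of Fos and of Jund was in D1 SC and not in D1 SS, as for 18.9% of all genes with a promoter peak in either list, and one named Jun was in D1 SS and not in D1 SC, as for 6.26%. D1 CS had Fos and Jund higher and no member lower than D1 SS, with backgrounds of 16.8% and 6.30%. The same 2 promoters were in D1 CS and not in D1 SS (background 29.5%), and none was in D1 SS and not in D1 CS (3.56%). D1 CC had Fos and Jund higher, and Fosl2 and Jun lower, than D1 SS, with backgrounds of 8.91% and 22.0%. The Fos and Jund promoters were in D1 CC and not in D1 SS (34.9%), and the one named Jun was in D1 SS and not in D1 CC (3.01%). In all 3 pairs Jund and the name of Jun carry the limits given above. By position, Fos, Fosb and Jund had a peak within 1 kb of the TSS in D1 SC, CS and CC and none in D1 SS. No share of all genes is given for that rule, so it is not read as a result about these members. By row name, Fosb had a promoter peak in D1 SS too. With 1000 bp added in place of 200 bp, no member, Fos included, was past 2-fold higher in any of the 3. These 3 comparisons share the D1 SS list and cross the patch sets. Unlike Fos, Fosb kept a share within 2-fold of baseline, with log2 ratios of 0.48, 0.04 and -0.11 for D1 SC, CS and CC. Junb did so too, with -0.10, 0.28 and -0.66.

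In D2, no member passed 2-fold between SC and SS in either direction, with backgrounds of 5.37% higher and 6.66% lower. None had a promoter peak in only D2 SC (background 5.12%) or only D2 SS (8.18%). Between D2 CC and D2 SS, too, no member passed 2-fold (backgrounds 5.97% and 5.46%) and no promoter differed (6.93% and 5.66%). These lists are all patch-poor. Fos had log2 ratios of 0.43 in D2 SC and -0.28 in D2 CC against D2 SS, and Fosb 0.10 and 0.27. D2 CS, which is patch-rich and the shortest list, had Fosl2, Jun and Jund higher than D2 SS and no member lower, with backgrounds of 35.0% and 6.28%. The promoters named Jun and Jund were in D2 CS and not in D2 SS (7.09%), and none was in D2 SS and not in D2 CS (16.6%). Fosl2 covered 977 bp in D2 CS and 916 bp in D2 SS, and its log2 ratio of 1.41 follows from the length of the lists.

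Relapse was also set against acute cocaine and withdrawal. D1 CC had no member higher than D1 SC and had Fosl2 and Jund lower, with log2 ratios of -1.43 and -1.14 and backgrounds of 5.76% and 29.1%. In bp both were larger in D1 CC (1010 and 1181 bp) than in D1 SC (866 and 796 bp), so the lower shares follow from the longer list. No member's promoter peak was in D1 CC only (25.1%) or D1 SC only (3.38%). Against D1 CS, D1 CC had no member higher and Jun, by row name, lower (8.13% and 5.53%). No promoter was in D1 CC only (12.5%), and the one named Jun was in D1 CS only (4.73%). D2 CC and D2 SC did not differ by 2-fold at any member (6.67% and 4.32%) or in any promoter (8.84% and 4.52%). Fos had a log2 ratio of -0.71 there, with 734 bp in D2 CC and 1045 bp in D2 SC. These 3 comparisons stay within a patch set.

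Between cell types, D1 SC had Fosl2 and Jund higher than D2 SC and no member lower (32.7% and 6.60%). The Jund promoter was in D1 SC only (6.87%) and none was in D2 SC only (15.9%). D1 CS had Junb higher than D2 CS, with a log2 ratio of 1.06 (2278 bp in D1 CS and 455 bp in D2 CS), and no member lower (8.94% and 6.82%). That Junb call was lost at q of at most 1e-05, at equal list length, with 1000 bp added and in RefSeq gene windows. No promoter was in D1 CS only (17.6%) or D2 CS only (4.98%). D1 CC had Jund higher than D2 CC and no member lower (13.3% and 6.54%), with the Jund promoter in D1 CC only (14.4%) and none in D2 CC only (4.87%). At baseline, D1 SS had Fosl2 and Jun, by row name, higher than D2 SS and Fos lower (19.4% and 7.22%). The Fos call was lost at q of at most 1e-05, at equal list length and with 1000 bp added. The promoter named Jun was in D1 SS only (3.19%) and the Fos promoter in D2 SS only (26.8%). The CS and SS pairs stay within a patch set and the other two cross the sets. Of the 4 states, SS is the one whose D1 and D2 lists differ most in D2 MSN markers with a peak, at 1 and 5 of 6, and the part of cell makeup in the Fos difference was not tested.

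Over the members with a peak in either list, the median log2 ratio stood near that of all genes in most pairs. Against SS it was 0.19, 0.16 and -0.39 in D1 SC, CS and CC, where all genes gave 0.15, -0.08 and -0.37. In D2 SC, CS and CC it was 0.18, 1.05 and -0.05, where all genes gave 0.05, 0.61 and -0.09. D1 CC against D1 SC gave -0.59 (all genes -0.53), D1 CC against D1 CS -0.63 (-0.34), and D2 CC against D2 SC -0.10 (-0.12). D1 against D2 gave 0.84, -0.07, 0.09 and 0.47 in SC, CS, CC and SS, where all genes gave 0.60, -0.32, 0.04 and 0.33. These medians include members with no peak in one list, whose ratio is set by the 200 bp added. They also include Jun by row name and Jund, with the limits given above. In D2 CS against D2 SS, Jun gave 3.75 by row name. In RefSeq gene windows it gave 1.04, beside a median of 0.85 for all genes, so the excess of the members there is not read as a result.

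Genes that act with AP-1 were followed in the same way. Of 16 other genes whose products can pair with Fos or Jun proteins, or with their relatives, 6 had a promoter peak in all 8 lists, 8 in some lists and 2 in none. Of all 16805 genes with a promoter peak in any list, 8396 had one in all 8. Among the 8 was Fosl1, which encodes Fra-1 and had a promoter peak in D1 SC, D1 CS, D1 CC, D2 CC and D2 SS. Another was Atf2, a CRE-binding partner of Jun, in D1 SC, D1 CS, D1 SS and D2 SC. Maf was in 6 lists, Batf3 in 2 and Batf2 in 1. Of 22 genes upstream of Fos and Jun (serum response factor, Elk factors, CREB and its coactivators, and the MAP kinases that reach them), 19 had a promoter peak in all 8 lists. The 3 exceptions were Mapk3, which encodes ERK1, and the kinase gene Rps6ka1, both absent from D1 SS alone, and Elk3, with a promoter peak in D1 CS and D1 CC. Of 9 genes described as FosB or ΔFosB targets, 6 had a promoter peak in all lists, 2 in some and 1, Cdk5, has no row. Pdyn, the dynorphin precursor of D1 neurons, was in all 4 D1 lists and D2 CC, and Ehmt2, a histone H3 lysine methyltransferase, in D1 CC, D2 CC and D2 SS.

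Past 2-fold against D1 SS, 4 of the 11 partner genes with a peak were higher in D1 SC and 0 lower, where all genes gave 19.1% and 9.13%. Their median log2 ratio was 0.66, beside 0.15 for all genes. In D1 CS it was 3 higher and 0 lower of 14 (16.8% and 6.30% of all genes), and in D1 CC 1 higher and 4 lower of 14 (8.91% and 22.0%). Against D2 SS, of 15 partner genes with a peak, 1 was higher and 3 lower in D2 SC (5.37% and 6.66%), 7 higher and 1 lower in D2 CS (35.0% and 6.28%), and 0 higher and 3 lower in D2 CC (5.97% and 5.46%). Beside the same shares of all genes, 2, 2 and 1 of the 22 upstream genes were higher in D1 SC, CS and CC than in D1 SS, and 0, 0 and 4 were lower. In D2 none of the 22 passed 2-fold in SC or CC against SS, and 12 were higher and 0 lower in CS. The median log2 ratio of the upstream genes was 0.14 in D1 SC against D1 SS and 1.06 in D2 CS against D2 SS, where all genes gave 0.15 and 0.61. Of the FosB targets, 7, 8 and 8 had a peak in the pairs of D1 SC, CS and CC with D1 SS. None was higher and 1 was lower, in D1 CC, beside the same shares of all genes. Against D2 SS, 1 of 8 was higher in D2 SC, 2 of 7 in D2 CS and 1 of 8 in D2 CC, and none was lower.

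The genes whose covered share was most like that of Fos over the 8 lists, of 16503 genes with a peak in at least 4 lists, were Mpo (Pearson r = 0.992), Hnrnpl (0.990) and Gm44956 (0.986). All 3 had no peak in D1 SS. Hnrnpl, which encodes an RNA-binding splicing factor, covered 1017, 1900 and 2117 bp in D1 SC, CS and CC, and 1618, 966, 1259 and 1281 bp in D2 SC, CS, CC and SS. Those most like Fosb were Pafah1b2 (0.981), Sin3a (0.965) and Gm10516 (0.965). These correlations describe 8 lists that share depth and peak calling, and the highest of so many genes are high by choice.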

How the data were processed

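ATAC-seq peak lists of 8 groups, with 26 libraries of D1 and D2 MSN nuclei, were used. The build was mm10 and the tools MACS2, HISAT, cutadapt and SAMtools, per the submitters' processing notes, which give no version. Any pooling of libraries ahead of peak calling is not given in the sources used here. Fold enrichment, a ratio of each peak to its background, was deposited by the authors and was compared only within a list. The q-value of each peak, linear per the file headers, was 0.0453 or less. Distances to a TSS and gene names are also the authors' deposited values. The lists hold no column per library (0 columns).

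Chromosomes 1 to 19 and both sex chromosomes were kept. Peaks of all lists sharing at least 1 bp were merged. The members and gene lists were chosen with earlier results of these data known. All 6 members are described. Of the related gene lists, up to 5 genes with a promoter peak in some lists were named, those nearest to 4 lists first, and for Fos and Fosb the 3 genes with the most similar shares over the lists. The upstream windows of all 6 members were found in RefSeq (GRCm38.p6), and those of Fosl2 and Jund, whose RefSeq TSS differs from the TSS the rows give, lie outside the peaks described for them. Scripts ran under Python 3.11.15 with pandas 2.3.3 and numpy 2.4.6, and figures under matplotlib 3.10.9. The arithmetic of the comparison was checked on simulated data of 2000 genes, where 200 of 200 changed genes were recovered with 0 false calls. The changed genes were set past 2-fold and the others were equal in both lists, without noise. The check therefore gives no error rate for the real lists. Other thresholds, scalings, list lengths and windows were tried.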

Additional observations from a re-analysis of the deposited data

Results flagged for a closer look

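The peak over the Jun TSS carries the name Junos alone in 5 lists (D1 SC, D1 CC, D2 SC, D2 CC and D2 SS). Rows naming Jun, which the comparisons use, leave that opening out. It drew attention because signal lies in rows that the comparisons of named genes do not read.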

How the results depend on the processing

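No paired analysis was possible because the lists hold no column per library, and for the same reason no library could be left out. Counts of members past 2-fold are given below as higher or lower in the first list. With 1000 bp added in place of 200 bp, 0 were higher in D1 SC, D1 CS and D1 CC against D1 SS and in D1 CS against D2 CS, and 0 lower in D1 SC against D1 SS and D1 SS against D2 SS. With every list cut to its 27917 most significant peaks, 1 was lower in D1 CC against D1 SS, 0 lower in D1 CC against D1 SC, 1 higher and 1 lower in D2 CC against D2 SS and against D2 SC, 0 higher in D1 CS against D2 CS, 3 higher in D1 CC against D2 CC, and 1 higher and 0 lower in D1 SS against D2 SS; Fos then had 4 distal regions. With bp not divided by the length of the list, 1 was lower in D1 CC against D1 SS and in D2 CS against D2 SS, 3 were higher and 0 lower in D1 CC against D1 SC, and 1 higher in D1 SC against D2 SC and D1 SS against D2 SS. With q at most 1e-05, 1 was lower in D2 CC against D2 SC, 0 higher in D1 CS against D2 CS, 2 higher in D1 CC against D2 CC and 0 lower in D1 SS against D2 SS. In windows of RefSeq gene bodies with 1 kb on each side, chosen after seeing the data, 0 were lower in D1 SC against D1 SS, 1 lower in D1 CC against D1 SC, 1 higher in D1 SC against D2 SC and 0 higher in D1 CS against D2 CS. By position rather than name, also chosen after seeing the data, Jun had a promoter peak in 8 lists. Within 100 kb, Fos had 14 distal regions, 5 of them in all 8 lists, and Fosb 21. Where a peak had to cover 50% of a merged region, 1 Fosb region was in all 8 lists. The cause of these differences was not tested. The promoter limit of 2500 bp left the number of lists with a promoter peak within 1.5 times for 6 of 6 members. Ranked by q, 38 of 38 promoter peaks stood higher in their list than by fold, by a median of 18.2 points. Without read totals the depth limits, for weak peaks most of all, are unknown.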

Other observations

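Other genes of the 183 kb stretch around Jund had peaks in the patch-rich lists and none in the patch-poor ones. A region 55.9 kb downstream of the Jund TSS, named Rab3a, and another at 62.1 kb, named Mpv17l2, were in all 4 patch-rich lists. So were 3 regions named Mast3, at 92.1, 93.8 and 98.4 kb, and one named Arrdc2 at 141 kb. A region at 70.6 kb named Pik3r2 was in the 3 patch-rich D1 lists.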
